A study of Mus musculus with 4 samples.

Results

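Neurexins, neuroligins and contactin-associated proteins were followed through 2 libraries of transposon-mutagenised mouse cells. The 9 genes are Nrxn2, Nrxn3, Nlgn1, Nlgn2, Nlgn3, Cntnap2, Cntnap4, Cntnap5a and Cntnap5b. They were chosen by name from these synaptic adhesion families, and a gene absent from a library's table was counted as having no reads there. In all, 5614 genes were listed in either library. Of the 9, 7 were listed in both libraries, and Nlgn2 and Nlgn3 were listed in neither.

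The material was genomic DNA from haploid neural stem cell-like cells, derived on a 129Sv background from haploid embryonic stem cells. Library 1 and library 2 were each deposited as a table that pools 2 samples, and the labels name no genotype, treatment or time that differs between them. The titles of the 2 samples in each pool end in 3 and 5, numbers the labels do not explain, so what separates the pooled samples, and hence what their summed counts add together, is unknown. All 4 samples share the same history. The cells went through embryoid bodies into N2B27 medium with FGF2, EGF, LDN193189, SB431542 and a ROCK inhibitor (Y-27632, Thiazovivin or both), received a gene trap plasmid carried by the piggyBac transposon together with its transposase, and were selected with G418. Junctions between transposon and genome were then amplified by splinkerette PCR, in which DNA is ligated to a partly unpaired adapter before nested amplification, and sequenced. Because DNA and not RNA was measured, the labelled cell type could not be set against its marker genes. With no value per sample there is no replicate check, and every interval below covers counting error only. Reads are PCR products without molecular identifiers, so more cells carrying an insertion, several insertions in a gene, and more copies of the same junction cannot be told apart.

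Neurexins are presynaptic membrane proteins that bind neuroligins across the synaptic cleft, and each neurexin gene produces long and short forms from separate promoters. Neuroligins are postsynaptic, with Nlgn1 known mainly from excitatory synapses, Nlgn2 from inhibitory synapses and Nlgn3 from both. Contactin-associated proteins are relatives of the neurexins by their domains. Cntnap2 (Caspr2) gathers potassium channels beside the node of Ranvier, and Cntnap4 acts in interneurons and dopaminergic neurons. Cntnap5a and Cntnap5b are less studied relatives of Caspr2. In haploid cells an insertion that disrupts such a gene leaves no other copy.

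Library 1 held 55442 nonredundant and 877870 redundant reads over 4184 genes, and library 2 held 48750 and 1300140 over 3168 genes. Redundant reads are the larger of the counts the authors gave for each gene, and nonredundant reads, whose definition is not given in the sources used here, were used unless stated otherwise. Intervals on redundant reads treat every read as independent, which PCR copies of the same junction are not. They are therefore too narrow to decide whether the libraries differ. Among the 21035 mouse genes with curated RefSeq transcripts, 19.9% had at least 1 read in library 1 and 15.0% in library 2, against 7 of the 9 adhesion genes in each. A minimum of 10 reads was reached by 4 of the 9 in library 1 (Nrxn3, Nlgn1, Cntnap2 and Cntnap5b), where 2.37% of all genes reached it. In library 2 it was reached by 2 of the 9 (Nrxn3 and Cntnap2), where 1.40% of all genes did. The median over the 9 genes was 8 reads in library 1 and 4 in library 2, while the median over all 21035 genes was 0 in both. Those values over all genes are not matched for length. Among the 2103 longest genes, which include all 7 listed adhesion genes, 71.7% were listed in library 1 and 58.3% in library 2. There 13.5% and 7.47% reached 10 reads, and the medians were 2 and 1. The 9 genes were picked with earlier results of these data known, so these counts are a description.

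**Figure D1:**
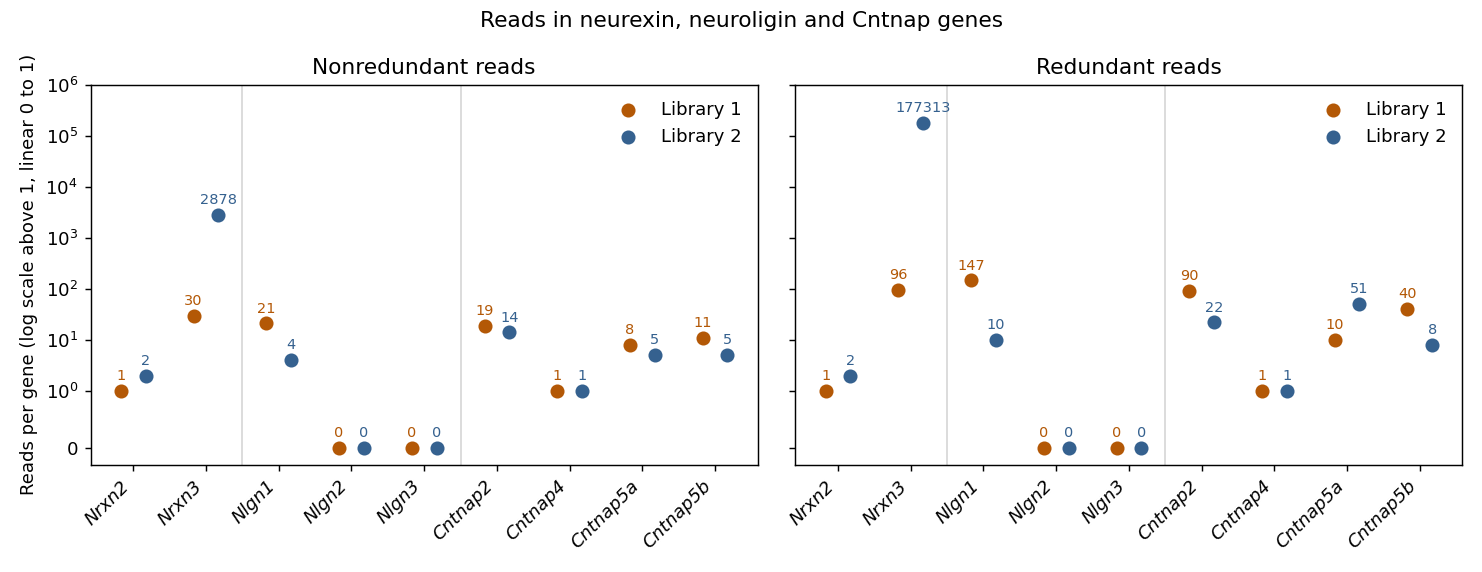
Nonredundant reads (left) and redundant reads (right) of each adhesion gene in library 1 and library 2, on an axis that is linear from 0 to 1 and logarithmic above. Each point is the value of a pool of 2 samples, and Nrxn3 in library 2 (2878 and 177313 reads) stands far above every other point.

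Nrxn3, the neurexin gene on chromosome 12, dominated the family, and almost all of its reads were in library 2. Its table entry sums 3 RefSeq transcripts, so reads of its long and short forms were not separated. RefSeq's promoter windows of build GRCm38.p6 give Nrxn3 3 annotated transcript starts, all on the plus strand. Whether each is a promoter in use was not tested, and an annotated start can belong to an incomplete transcript. They are shown because Nrxn3 gave nearly all of the family's reads in library 2, though not in library 1. The 250 bases before each start are printed, with every TTAA, the target sequence of the piggyBac transposase, in capitals:
Nrxn3 window 1, chr12:88794254-88794503: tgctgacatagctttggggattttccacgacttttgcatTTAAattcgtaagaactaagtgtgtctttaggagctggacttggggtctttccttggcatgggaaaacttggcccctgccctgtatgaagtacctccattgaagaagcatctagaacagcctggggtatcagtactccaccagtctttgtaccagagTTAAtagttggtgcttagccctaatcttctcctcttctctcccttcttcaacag
Nrxn3 window 2, chr12:88953140-88953389: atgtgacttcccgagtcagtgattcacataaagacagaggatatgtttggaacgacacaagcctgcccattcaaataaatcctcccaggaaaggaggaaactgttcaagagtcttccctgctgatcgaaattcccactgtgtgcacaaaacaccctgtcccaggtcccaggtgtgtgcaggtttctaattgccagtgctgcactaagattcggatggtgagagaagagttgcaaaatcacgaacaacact
Nrxn3 window 3, chr12:89812233-89812482: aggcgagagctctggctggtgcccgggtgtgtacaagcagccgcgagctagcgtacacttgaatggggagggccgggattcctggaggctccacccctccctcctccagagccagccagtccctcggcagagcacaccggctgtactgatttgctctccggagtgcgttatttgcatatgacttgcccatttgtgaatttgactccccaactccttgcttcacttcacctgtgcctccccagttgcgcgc
The first window held 2 copies of TTAA and the others 0. TTAA reads the same on both strands and cannot overlap itself, and 49.0% of all 32851 windows of this length held it. The deposited tables place no read within a gene, so none of these starts can be tied to the Nrxn3 reads, and the authors' own build was mm9.

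Nrxn3 had 30 nonredundant reads in library 1 and 2878 in library 2. These were 0.0541% of library 1 (exact Clopper-Pearson 95% interval 0.0365 to 0.0772) and 5.90% of library 2 (5.70 to 6.12). The share was 109-fold lower in library 1 (95% interval 76.3 to 162, counting error only). Redundant reads numbered 96 and 177313, or 0.0109% and 13.6% of the libraries. Nrxn3 was thus the third gene of library 2 by either count, whereas in library 1 it ranked 307 by nonredundant reads, level with 3 other genes, and 351 by redundant reads. Each redundant count can be set against its nonredundant count. For Nrxn3 this ratio was 3.20 in library 1 and 61.6 in library 2. In library 2 only 3 of the other 293 genes with 10 or more nonredundant reads had a ratio as high, and the median of all 294 was 4.55. In library 1 the Nrxn3 ratio lay below the median of 4.53 over 499 such genes. Over all reads of a library the ratio was 15.8 in library 1 and 26.7 in library 2.

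The difference in Nrxn3 was set against all genes by a fixed size of change. A gene was called where its share of reads differed at least 10-fold between the libraries and the higher library had at least 10 reads, with a library at 0 set to 3 reads. By this rule 5.45% of the 5614 listed genes were higher in library 1 and 3.28% were lower in library 1. Among the adhesion genes, 7 of which were listed, 0 of 9 were higher in library 1 and 1 of 9, Nrxn3, was lower there. Nrxn3 was known to be among the leading genes of library 2 when the 9 genes were picked, so these counts are a description.

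**Figure D2:**
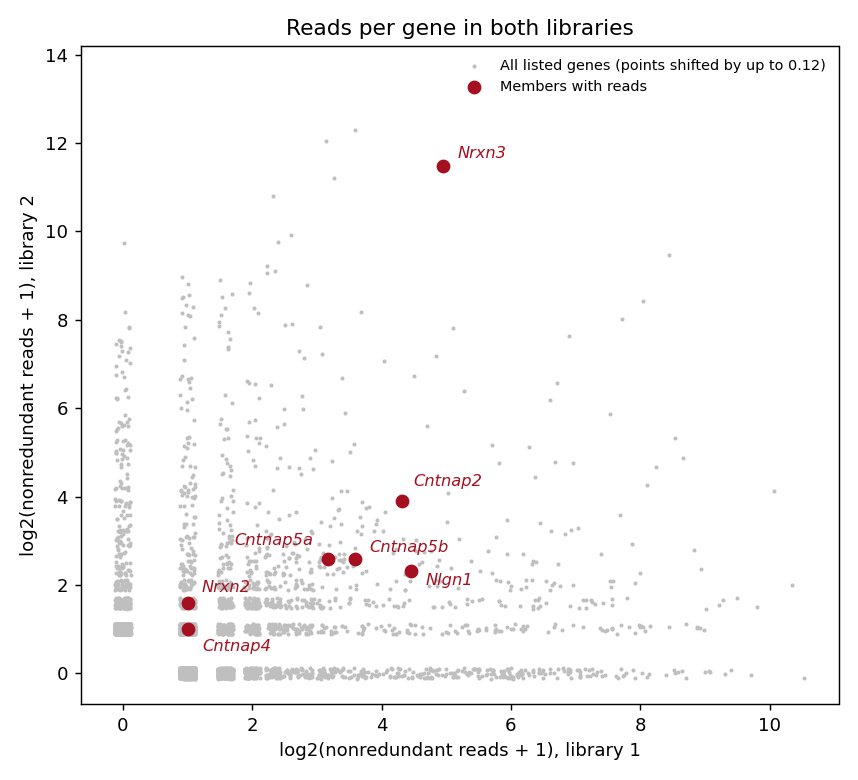
Nonredundant reads of all 5614 listed genes, as log2(reads + 1) in library 1 (x axis) and library 2 (y axis), with points of the other genes shifted slightly to separate them. The 7 adhesion genes with reads are in red; Nrxn3 lies high in library 2, and the other 6 lie where neither library has more than 21 reads.

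The genes with the pattern most like that of Nrxn3 were the other leading genes of library 2. Likeness was the Euclidean distance over 4 values, log2(reads + 1) of both kinds of reads in both libraries. Nearest was Stx1a, a syntaxin of synaptic vesicle fusion, with 11 nonredundant reads in library 1 and 4988 in library 2 (distance 2.04). Slc8b1, a mitochondrial sodium-calcium exchanger, had 8 and 4497 (distance 2.13), and Ski, a co-repressor of TGF-beta signalling, had 9 and 2469 (distance 2.22). All 3 had fewer reads than Nrxn3 in library 1. Their redundant reads in library 2 were also many, at 243942 for Stx1a, 323039 for Slc8b1 and 97543 for Ski. Many redundant reads per nonredundant read were thus not particular to Nrxn3.

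Nrxn2, the neurexin gene on chromosome 19, was barely represented, with 1 nonredundant read in library 1 and 2 in library 2. Its redundant reads were also 1 and 2. With counts this low no fold is given. A count of 1 read was shared with 2245 other genes of library 1, so Nrxn2 stood among the least supported genes there.

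Nlgn1 was the only neuroligin with reads. It had 21 nonredundant reads in library 1, or 0.0379% (95% interval 0.0234 to 0.0579), and 4 in library 2, or 0.00821% (0.00224 to 0.0210). Its share was 4.62-fold higher in library 1 (95% interval 1.56 to 18.5, counting error only), which is short of the 10-fold size used for a call. Redundant reads differed more, with 147 in library 1 and 10 in library 2, a share 21.8-fold higher in library 1 (95% interval 11.5 to 46.3). In redundant reads Nlgn1 therefore was called higher in library 1, as were 11.0% of all listed genes, while 4.99% were called lower. Each nonredundant read of Nlgn1 stood for 7.0 redundant reads in library 1 and 2.5 in library 2.

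Nlgn1 has 2 annotated starts in the RefSeq windows of GRCm38.p6, both on the minus strand of chromosome 3. Its table entry sums 2 RefSeq transcripts. The Nlgn1 windows are printed for comparison with those of Nrxn3, since Nlgn1 was the family member with most redundant reads in library 1, with TTAA in capitals:
Nlgn1 window 1, chr3:26331910-26332159: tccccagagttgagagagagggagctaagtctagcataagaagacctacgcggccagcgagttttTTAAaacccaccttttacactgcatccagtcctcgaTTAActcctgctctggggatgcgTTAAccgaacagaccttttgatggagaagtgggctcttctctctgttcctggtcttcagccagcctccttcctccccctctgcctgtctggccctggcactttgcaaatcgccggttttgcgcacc
Nlgn1 window 2, chr3:26153987-26154236: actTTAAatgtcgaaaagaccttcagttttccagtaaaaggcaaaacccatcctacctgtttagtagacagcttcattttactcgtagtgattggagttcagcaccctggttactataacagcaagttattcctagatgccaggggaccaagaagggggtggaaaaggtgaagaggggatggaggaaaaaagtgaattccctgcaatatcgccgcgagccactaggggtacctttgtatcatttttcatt
These windows held 3 and 1 copies of TTAA. Windows were available for 5 of the 9 genes, and of their 9 windows 3 held the motif, all of them in Nrxn3 or Nlgn1. The windows of Nlgn2, Cntnap2 and Cntnap5b held 0 copies. The deposited counts place no read within a gene, so no window can be tied to reads. A link between TTAA in these windows and the reads was not tested.

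Nlgn2, on chromosome 11, and Nlgn3, on the X chromosome, had 0 reads of either kind in both libraries. A count of 0 allows a share of up to 0.00541% of the nonredundant reads of library 1 and 0.00615% of those of library 2. These limits are above the shares that 1 or 2 reads gave Nrxn2 and Cntnap4, so the depth does not separate the unlisted neuroligins from those genes.

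Cntnap2, on chromosome 6, had the most nonredundant reads of the 4 contactin-associated genes among the 9, and these were close in number in both libraries. It had 19 in library 1, or 0.0343% (95% interval 0.0206 to 0.0535), and 14 in library 2, or 0.0287% (0.0157 to 0.0482). The ratio of these shares, library 1 over library 2, was 1.19 (95% interval 0.567 to 2.57), so a difference was not detectable at this depth. Its redundant reads numbered 90 in library 1 and 22 in library 2, a ratio of shares of 6.06 (95% interval 3.77 to 10.1). That interval counts copies of the same junction as independent reads, so it does not decide a difference either.

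The close relatives Cntnap5a and Cntnap5b, both on chromosome 1, were also in both libraries. Cntnap5b had 11 reads in library 1 and 5 in library 2, a ratio of shares of 1.93 (95% interval 0.620 to 7.10). Cntnap5a had 8 in library 1 and 5 in library 2, a ratio of 1.41 (0.406 to 5.47). Neither difference was detectable in nonredundant reads. In redundant reads these genes leaned in opposite directions. Cntnap5b had 40 in library 1 and 8 in library 2, a ratio of shares of 7.41 (95% interval 3.42 to 18.3). Cntnap5a had 10 in library 1 and 51 in library 2, a ratio of 0.290 (0.131 to 0.578). Its ratio of redundant to nonredundant reads was thus 1.25 in library 1 and 10.2 in library 2. Of the 7 listed genes, only it and Nrxn3 lay above 4.55 in library 2, the median of genes with 10 or more reads. Cntnap4, on chromosome 8, had 1 read of each kind in each library.

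**Figure D3:**
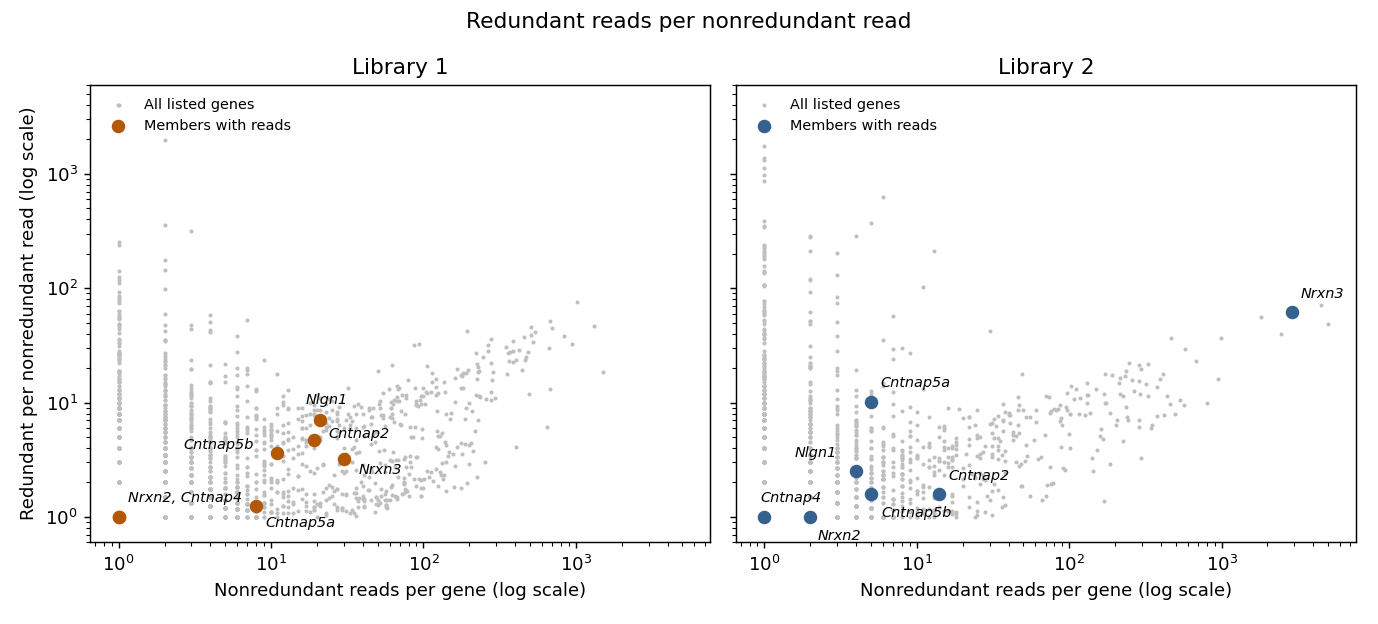
Redundant reads per nonredundant read (y axis, logarithmic) against nonredundant reads (x axis, logarithmic) for every listed gene of library 1 (left) and library 2 (right). Adhesion genes are coloured; Nrxn3 has 3.20 in library 1 and 61.6 in library 2, and Nlgn1 has the highest ratio of the family in library 1, at 7.0.

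Summed over the 9 genes, the family held 91 nonredundant reads in library 1, or 0.164% (95% interval 0.132 to 0.201), and 2909 in library 2, or 5.97% (5.76 to 6.18). This difference was that of Nrxn3, which gave 33.0% of the family's reads in library 1 (95% interval 23.5 to 43.6) and 98.9% in library 2 (98.5 to 99.3). Without Nrxn3 the direction turned in shares of the full library totals. The other genes held 61 nonredundant reads of library 1 and 31 of library 2, shares of 0.110% and 0.0636%. That is a ratio of 1.73 (95% interval 1.11 to 2.76, counting error only). Both totals still held the leading genes. Without its 10 leading genes, library 1 kept 46462 of 55442 reads and library 2 kept 28135 of 48750. No ratio was computed on these smaller totals with Nrxn3 left out of both libraries. The turn is therefore shown for the full totals alone. Nlgn1 gave 21 of the 61 and 4 of the 31.

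The 9 genes differ widely in length, and lengths from the RefSeq table of GRCm38.p6 were used only to order genes. The 5 longest (Cntnap2, Nrxn3, Nlgn1, Cntnap5a and Cntnap5b, in that order) had 8 to 30 reads in library 1 and 4 to 2878 in library 2. Cntnap4 and Nrxn2, which come next, had 1 or 2, and the 2 shortest, Nlgn3 and Nlgn2, had 0. The 21035 genes were ordered by length and divided into 10 equal classes, and all 7 listed members fell in the class of the longest genes. In that class of 2103 genes, 71.7% were listed in library 1 and 58.3% in library 2, and 13.5% and 7.47% reached 10 reads. Nlgn2 fell in the fifth class from the shortest, where 9.89% and 6.75% of genes were listed, and Nlgn3 in the sixth, where 13.6% and 10.5% were. Unlisted genes were thus the usual case in those classes.

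Among the longest class, Cntnap2 had more reads than 90.3% of genes in library 1 and 94.0% in library 2. For Nlgn1 the figures were 90.7% and 83.0%, for Cntnap5b 87.5% and 86.1%, and for Cntnap5a 84.5% and 86.1%. Nrxn3 exceeded 92.2% in library 1 and had the most reads of the class in library 2. Nrxn2 and Cntnap4, at 1 or 2 reads, exceeded 28.3% each in library 1, and 64.6% and 41.7% in library 2. Nrxn3, Nlgn1, Cntnap2 and Cntnap5a were among the 100 longest genes. Those 100 genes had a median of 8.5 reads in library 1 (quartiles 4 and 21) and 5 in library 2 (quartiles 2 and 9). In library 1 these members had 8 to 30 reads. In library 2, Nlgn1, Cntnap2 and Cntnap5a had 4 to 14, and Nrxn3 lay far outside the quartiles.

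Further contactin-associated genes lie outside the 9. Cntnap3 had 39 nonredundant reads in library 1 and 2 in library 2, more than any of the 9 in library 1. Its share was 17.1-fold higher in library 1 (95% interval 4.44 to 147, counting error only), past the 10-fold size. Cntnap5c had 6 and 1 reads, a ratio of shares of 5.28 (0.640 to 243), an interval that includes equal shares. Cntnap1, known as Caspr and needed at paranodal junctions, had 0 in library 1 and 1 in library 2.

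Known binding partners and scaffolds were described by their counts, to be read beside those of all genes: 19.9% listed in library 1, 15.0% listed in library 2, and 5.45% of listed genes called higher and 3.28% lower in library 1. Most listed genes among these partners and scaffolds fell in the class of the longest genes. In that class 71.7% of genes were listed in library 1 and 58.3% in library 2. The shares over all genes are therefore not matched for length. Of 29 extracellular partners of neurexins and neuroligins, 15 were listed in library 1 and 12 in library 2. Adgrl2, a latrophilin, was the 1 gene of the 29 called higher in library 1, with 23 and 1 reads, a ratio of shares of 20.2 (95% interval 3.28 to 833). Grid1, a delta-type glutamate receptor linked to neurexins by cerebellins, was the 1 gene called lower there, with 6 and 131, a share 24.8-fold lower (11.1 to 68.9). Mdga2, which masks neuroligins, had 10 and 34 reads and was not called. None of the 4 cerebellin genes was listed, and of 4 Lrrtm genes only Lrrtm4 was, with 7 and 2 reads. The median of the list was 1 read in library 1 and 0 in library 2.

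Intracellular scaffolds leaned to library 1. Of 23 genes, 14 were listed in library 1 and 11 in library 2, and 3 were called higher in library 1 and 0 lower, beside 5.45% and 3.28% of all listed genes. The called genes were Gphn, the gephyrin gene of inhibitory postsynaptic sites, with 190 reads in library 1 and 1 in library 2, Magi2, a guanylate kinase-like scaffold, with 132 and 9, and Shank2, a scaffold of excitatory synapses, with 121 and 0. The ratio of shares was 167 for Gphn (95% interval 29.6 to 6633) and 12.9 for Magi2 (6.59 to 28.8). With its 0 in library 2 set to 3 reads, the share of Shank2 was 35.5-fold higher in library 1. Dlg2, a relative of PSD-95, had 13 and 9 reads. The median of the list was 1 read in library 1 and 0 in library 2, so the lean rested on few genes.

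Among 14 partners of contactin-associated proteins, 8 were listed in library 1 and 7 in library 2, with medians of 1.5 and 0.5 reads, while 19.9% and 15.0% of all genes were listed. In each direction 1 gene was called, beside 5.45% and 3.28% of all listed genes. Cntn5, a contactin, was called higher in library 1 with 98 and 5 reads, a ratio of shares of 17.2 (95% interval 7.14 to 54.3). Nrcam, an adhesion molecule of nodes and axons, was called lower there with 2 and 37, a share 21.0-fold lower (5.43 to 180). Cntn4 had 21 and 0 reads, 6.16-fold higher in library 1 with the 0 set to 3 reads, and short of a call. In redundant reads, with 139 and 0, it was 68.6-fold higher by the same setting and was called. Cntn2, the partner of Cntnap2 at juxtaparanodes, and the potassium channel genes Kcna1 and Kcna2 were listed in neither library.

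**Figure D4:**
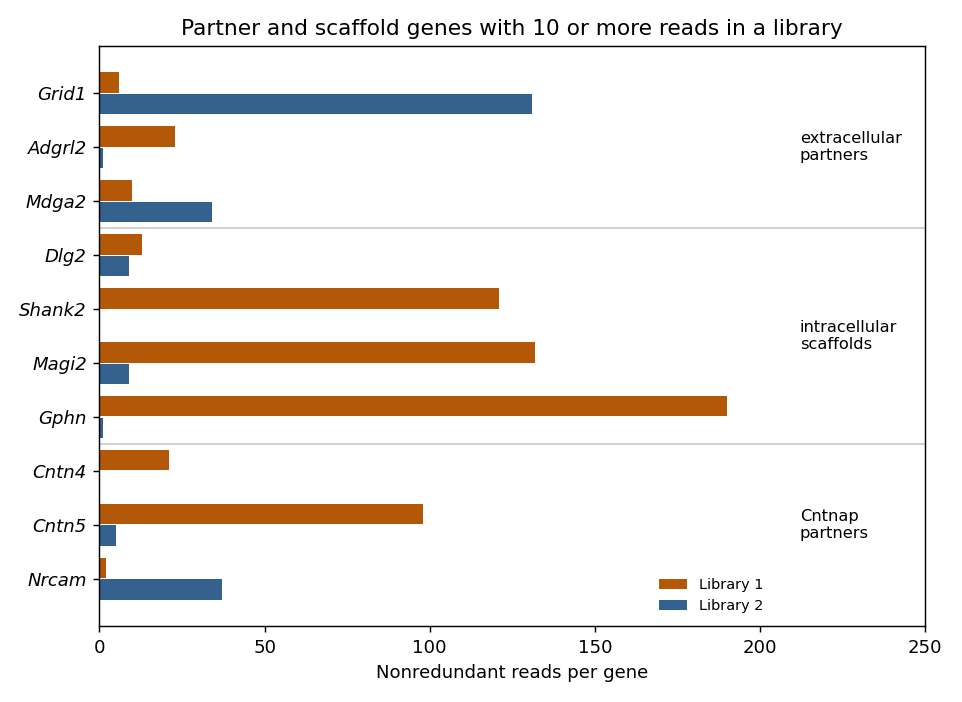
Nonredundant reads (bars, linear axis from 0) in library 1 and library 2 of the partner and scaffold genes with 10 or more reads in a library. Gphn, Magi2 and Shank2 are high in library 1 (190, 132 and 121 reads), and Grid1 is high in library 2 (131 reads).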

How the data were processed

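Genomic DNA of 4 samples was measured, deposited as 2 pooled tables of 2 samples each, with groups taken from the table each label names. Per the file headers, the tables give the authors' counts of nonredundant and redundant reads per gene, with no normalization in the values. Per the submitters' processing notes, CASAVA, BWA and the build mm9 were used. The read filter, the meaning of nonredundant and the rule for genes were not given in the sources used here. Total nonredundant counts were 55442 and 48750.

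Shares were computed over each library's total with exact Clopper-Pearson 95% intervals, and ratios of shares with exact conditional intervals (Python 3.11.15, scipy 1.17.1, pandas 2.3.3). No test between the libraries was made, since each is 1 pool. Genes were matched through transcripts, then symbols, to RefSeq of GRCm38.p6 (4182 of 4184 and 3167 of 3168). Named were all 9 genes, the relatives (not all are reported here), and up to 6 genes per list among those with 10 or more reads, and 3 genes most like Nrxn3; unlisted or low partners (Lrrtm4, the cerebellins, Cntn2, Kcna1, Kcna2), Dio2 and Ephb1 were named after their values were seen. The genes and the 4 lists were chosen with earlier results of these data known. A planned description of protein sequences was not made.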

Additional observations from a re-analysis of the deposited data

How the results depend on the processing

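No paired analysis was possible because the deposited values exist per library and not per sample; for the same reason no replicate could be left out. Of the 9 genes, Nrxn3 was called lower in library 1 at 5-fold, 10-fold and 20-fold, with a minimum of 3 reads, in redundant reads and without the 10 leading genes of each library in its total. The count called higher in library 1 was 0 in these settings except redundant reads, where it was 1 (Nlgn1). In redundant reads the ratios of shares, library 1 over library 2, were 0.000802 for Nrxn3, 21.8 for Nlgn1, 6.06 for Cntnap2, 0.290 for Cntnap5a and 7.41 for Cntnap5b, and the cause was not tested.

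The family's share ratio was 0.0275 with all genes and 0.00321 in redundant reads. It turned to 1.73 without Nrxn3 and to 4.55 in redundant reads without Nrxn3, both over the full library totals. Leaving out each library's 10 leading genes gave 1.78. That setting drops the 2878 Nrxn3 reads of library 2 but keeps its 30 in library 1 (91 family reads against 31). The 1.78 is thus not a like comparison, and nothing is drawn from its direction. The share in library 1 was then 0.110% without Nrxn3, 0.0439% in redundant reads and 0.0329% in redundant reads without Nrxn3. In library 2 it was 0.0636%, 13.6% and 0.00723%, and 0.110% without the leading genes. Genes of the family in library 2 numbered 4 at a minimum of 5 reads and 6 at 2 reads, against 2 at 10. Redundant reads per nonredundant read over the family in library 2 were 61.0 as a ratio of sums, 1.60 as a median over listed genes and 3.03 without Nrxn3. The settings in redundant reads without Nrxn3, and the copies without Nrxn3, were chosen after seeing the data. Fewer than 10 reads in both libraries limit Nrxn2, Cntnap4 and Cntnap5a. Over all listed genes, 306 were called higher and 184 lower in library 1, against 616 and 280 in redundant reads and 191 and 115 at 20-fold.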

Other observations

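Genes next to the 9 in the RefSeq order of GRCm38.p6 had few reads in most cases. Of 18 neighbours, 7 were listed in library 1, 5 in library 2 and 11 in neither, while 19.9% and 15.0% of all genes were listed in library 1 and library 2. Of the 18, 2 had 10 or more reads in a library. Among all genes, 2.37% reached 10 reads in library 1 and 1.40% in library 2. Adck1, the gene before Nrxn3, had 82 nonredundant reads in library 1 and 22 in library 2, while Dio2 on the other side of Nrxn3 had 0 in both. Adck1 thus had more reads than Nrxn3 in library 1 and far fewer in library 2. Med12, a subunit of the Mediator complex and the neighbour of Nlgn3 on the X chromosome, had 71 reads in library 1 and 0 in library 2, although Nlgn3 itself had none.

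Library 1 held a few reads of most genes that led library 2. Of the 9 leading genes of library 2 other than Nrxn3, 8 were listed in library 1, and the median over all 9 was 5 reads. Per 1000 nonredundant reads in library 2, these 9 genes had a median of 3.65 reads in library 1 (range 0 to 548, the highest being Ephb1), and Nrxn3 had 10.4. Conversely, of the 10 leading genes of library 1, 6 were listed in library 2, and the median over all 10 was 2.19 reads per 1000. Whether the 30 reads of Nrxn3 in library 1 share a source with those of library 2 was not tested.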
